A study of Mus musculus with 16 samples.

Results

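The serum amyloid A and calprotectin genes are 7 genes taken by symbol, *Saa1*, *Saa2*, *Saa3*, *S100a8*, *S100a9*, *Lrg1* and *Hp*, of the 22396 gene symbols that the deposited tables list. They were described in each of 16 mice. The transcripts of a symbol were summed, and levels are in TPM, a relative abundance of transcripts corrected for their length, so that genes can be compared within a mouse.

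Serum amyloid A proteins and haptoglobin (*Hp*) are acute-phase proteins, whose RNA is induced by IL-6, IL-1 and TNF through the factors STAT3, C/EBP beta and NF-kB. The liver makes most of the circulating protein, while the colonic epithelium makes SAA1 itself and, in mice, SAA3 in response to microbes and inflammation. S100A8 and S100A9 are calcium-binding proteins that pair to form calprotectin, a chelator of zinc and manganese that starves microbes of these metals, is abundant in the cytosol of neutrophils and is measured in stool as a marker of intestinal inflammation. LRG1 is a secreted glycoprotein that modifies TGF-beta signalling in blood vessels, and haptoglobin binds free haemoglobin.

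EpCAM+ cells, which carry a surface adhesion protein of epithelium, were sorted from the digested distal colonic mucosa of mice given water or dextran sulfate sodium (DSS), which injures the colonic epithelium. By the study's methods, injured regions of DSS-treated colons were first cut apart from unaffected tissue, so the tissue sampled also differed between treatments. Controls were Tnfr2-f/f mice, 3 after DSS and 4 on water. Mice labelled knockout were Vil1::Cre;Tnfr2-f/f, 4 after DSS and 5 on water, so that every mouse carried the floxed Tnfr2 alleles and the Cre, driven by the villin promoter, was present in the knockout mice alone and acts in intestinal epithelium. The labels give 3% DSS for 6 days and dissection on day 12 for all mice. The methods of the study name another DSS concentration, and its results describe an uninjured group taken before treatment. No age is in the labels. Each library came from 1 mouse. The DSS group was female throughout, with 1 control and 1 knockout in cage c and 2 controls and 3 knockouts in cage d. In the water group, cage a held males (2 of each genotype) and cage b females (2 controls, 3 knockouts). Treatment, tissue sampled, cage and deposited table split the mice in the same way, so these cannot be told apart, and no test was run across treatments.

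Epithelial markers were abundant in all libraries, with *Epcam* at 894 to 1017 TPM after DSS and 566 to 712 TPM in water. All 12 genes of an epithelial list passed a mean of 1 TPM, with a summed level of 5294 to 9743 TPM after DSS and 6111 to 8965 TPM in water. Of the 12, 2 (*Epcam* and *Cdh1*) ranked higher in all DSS-treated mice than in all water-treated mice and 0 lower. Of all genes at 1 rescaled TPM or more in each treatment, 10.6% ranked higher and 3.4% lower. The other genes of the list were all lower on average after DSS on the rescaled log2 scale, and the median difference of the list was -0.41. RNA of other cells was present beside it, above all in water, where 8 B and plasma cell genes summed to 482 to 14310 TPM (8.26 to 459 TPM after DSS). The number of genes above 0 was 13921 to 14953 after DSS and 13119 to 14849 in water, and TPM gives no read counts. The study's methods give one approximate read number for all libraries, and the depth of each library is not known here. Of 13 monocyte and macrophage genes, 12 had lower ranks in every DSS-treated mouse than in every water-treated mouse (summed level 78.0 to 165 TPM after DSS, 1255 to 2875 TPM in water), beside 5.27% of the 11263 genes that averaged 1 rescaled TPM or more over all 16 mice. Of the 13, 5 passed that filter through the water-treated mice alone. The targeted gene, *Tnfrsf1b*, had 16.5 ± 4.95 TPM (SD, n = 3) in DSS-treated controls and 18.4 ± 6.02 TPM (n = 4) in libraries labelled knockout (exact two-sided permutation p = 0.629). In water it had 13.9 ± 2.06 TPM (n = 4) and 11.8 ± 2.30 TPM (n = 5; exact permutation p = 0.198), so this gene did not separate the genotypes in either treatment, and the genotypes below are those of the labels. A TPM over the whole transcript does not show which of its exons were read, and by the study's methods the loxP sites flank an exon. The study reports reduced TNFR2, the protein of this gene, by flow cytometry in EpCAM+ cells of this knockout genotype. It reports loss of expression there by qPCR as well, and does not say whether those mice were the ones sequenced.

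By GENCODE M21 on GRCm38, the 3 amyloid genes lie together on chromosome 7. *Saa1* (ENSMUSG00000074115) is at chr7:46740497-46742980 on the minus strand, *Saa2* (ENSMUSG00000057465) at chr7:46751790-46754313 on the plus strand and *Saa3* (ENSMUSG00000040026) at chr7:46711998-46715700 on the minus strand. The calprotectin subunits are neighbours on chromosome 3, *S100a8* (ENSMUSG00000056054) at chr3:90668978-90670035 on the plus strand and *S100a9* (ENSMUSG00000056071) at chr3:90692632-90695721 on the minus strand. *Lrg1* (ENSMUSG00000037095) is at chr17:56119678-56122001 and *Hp* (ENSMUSG00000031722) at chr8:109575128-109579172, both on the minus strand. All 7 are protein-coding.

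*Saa1* and *Saa2* are near-identical copies, and this bears on how their reads were divided. Their coding sequences differ at 18 of 366 bases (95.1% identity), while *Saa3* is 73.0% identical to *Saa1*. Of the 31-base windows along the listed transcripts, 69.9% of those in *Saa1* occur in no other gene, as do 72.7% and 77.8% in the 2 transcripts of *Saa2*, 94.3% in *Saa3*, 99.7% in *Hp* and 100% in *S100a8*, *S100a9* and *Lrg1*. Coding bases 90 to 149, counted from the first base of the start codon, are shown because 7 of the 18 differences fall there. Capitals mark the bases that differ between the sequences.
Saa1: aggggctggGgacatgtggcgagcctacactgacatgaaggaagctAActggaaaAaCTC
Saa2: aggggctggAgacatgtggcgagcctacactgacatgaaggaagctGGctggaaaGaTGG

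The promoters of both genes are also alike. Over the 250 bases before the RefSeq start, 238 of 251 aligned columns were identical (94.8%). Promoters were found in the RefSeq table (GRCm38.p6) for 6 of the 7 members; *Hp* is named only. Each was searched on both strands for letters of 3 factors that induce acute-phase genes, TTGCNNAA (C/EBP), TTCNNNGAA (STAT) and GGGA followed by any 2 bases and TTCC (NF-kB). The C/EBP letters occurred in *Saa1*, *Saa2*, *Saa3* and *S100a9*, against 9.56% of 32851 promoters of this length. The STAT letters (7.02% of promoters) and the NF-kB letters (1.21%) occurred in none of the 6. A match describes the sequence and is not a binding site, and the lack of one says only that these letters are not in this window. The sequences below end before the first annotated base of the gene, run 5′ to 3′ on the gene's strand, and have the C/EBP letters in capitals. They are shown for the amyloid copies, whose levels lay far apart, and for the calprotectin pair, whose levels moved together among the DSS-treated mice but not in water.
Saa1, chr7:46742981-46743230, minus strand: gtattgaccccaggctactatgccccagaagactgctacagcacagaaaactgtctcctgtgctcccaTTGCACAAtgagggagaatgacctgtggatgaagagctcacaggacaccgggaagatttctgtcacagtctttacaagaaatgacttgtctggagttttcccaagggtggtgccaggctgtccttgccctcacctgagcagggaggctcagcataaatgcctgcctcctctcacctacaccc
Saa2, chr7:46751583-46751789, plus strand: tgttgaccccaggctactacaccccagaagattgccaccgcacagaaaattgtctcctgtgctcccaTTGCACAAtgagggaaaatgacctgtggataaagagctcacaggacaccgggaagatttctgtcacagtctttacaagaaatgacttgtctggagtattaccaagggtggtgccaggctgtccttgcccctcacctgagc
Saa3, chr7:46715701-46715926, minus strand: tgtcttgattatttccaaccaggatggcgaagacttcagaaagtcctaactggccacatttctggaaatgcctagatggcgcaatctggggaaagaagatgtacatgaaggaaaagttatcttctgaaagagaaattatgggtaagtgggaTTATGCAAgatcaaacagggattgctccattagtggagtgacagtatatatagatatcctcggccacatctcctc
S100a8, chr3:90668821-90668977, plus strand: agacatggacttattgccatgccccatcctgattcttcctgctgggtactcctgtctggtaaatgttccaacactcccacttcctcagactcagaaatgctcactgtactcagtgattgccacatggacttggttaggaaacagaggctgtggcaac
S100a9, chr3:90695722-90695971, minus strand: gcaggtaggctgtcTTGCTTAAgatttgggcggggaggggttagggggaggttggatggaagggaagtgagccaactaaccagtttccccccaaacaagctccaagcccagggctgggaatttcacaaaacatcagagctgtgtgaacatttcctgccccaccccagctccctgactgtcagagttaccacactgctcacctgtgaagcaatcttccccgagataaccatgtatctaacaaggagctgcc
Counted from the RefSeq start, the letters lie at -182 to -175 in *Saa1*, -183 to -176 in *Saa2*, -99 to -92 in *Saa3*, where they read on the other strand, and -236 to -229 in *S100a9*. Of the sequences shown, that of *S100a8* holds no capitals.

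*Saa1*, a high-density lipoprotein component of the acute phase, was the most abundant member in all mice but DSS-treated control 1 and was high with or without injury. It had 512, 539, 940 and 949 TPM in water-treated controls (mean 735 ± 242, SD, n = 4) and 1001, 673, 486, 1354 and 538 TPM in water-treated mice labelled knockout (811 ± 364, n = 5). After DSS it had 593, 480 and 789 TPM in controls (621 ± 156, n = 3) and 289, 458, 342 and 344 TPM in mice labelled knockout (358 ± 71.3, n = 4). By mean TPM the order was water knockout, water control, DSS control and DSS knockout. The first 3 overlapped one another, whereas the DSS-treated mice labelled knockout all lay below the other 12 mice in deposited TPM. The share of all genes that lay apart in this way was not counted. The treatments are scaled apart, however, and by percentile the DSS-treated mice labelled knockout overlapped the water-treated mice, with DSS-treated knockout 2 at 99.42 and water-treated control 1 at 99.28. *Saa1* ranked above 99.0% to 99.8% of all genes in every mouse.

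*Saa2*, the neighbouring copy, stayed near 0 throughout. It was listed at 0 in 10 of the 16 mice and reached at most 1.16 TPM, in DSS-treated control 3, which was also the DSS-treated mouse with the most *Saa1*. In water it was above 0 in control 1 (0.869 TPM) and knockout 5 (0.961 TPM) only. The sum of *Saa1* and *Saa2* was thus set by *Saa1*, at 621 ± 157 and 359 ± 71.2 TPM after DSS in controls and mice labelled knockout.

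*Saa3*, the amyloid made in mice outside the liver, was seen almost only after DSS. Its level was 134, 10.2 and 8.92 TPM in DSS-treated controls and 34.0, 59.4, 188 and 48.1 TPM in mice labelled knockout. In water it was listed at 0 in 8 of 9 mice and had 1.65 TPM in control 1. The DSS-treated mice did not overlap the water-treated mice, and among the DSS-treated mice the level spanned 21.1-fold, and the genotypes overlapped, with 2 controls below all the mice labelled knockout and control 1 below only knockout 3. Even the highest, knockout 3, had 0.549 of the TPM of *Saa1* in the same mouse, and in control 3 the ratio was 0.0113.

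**Figure D1:**
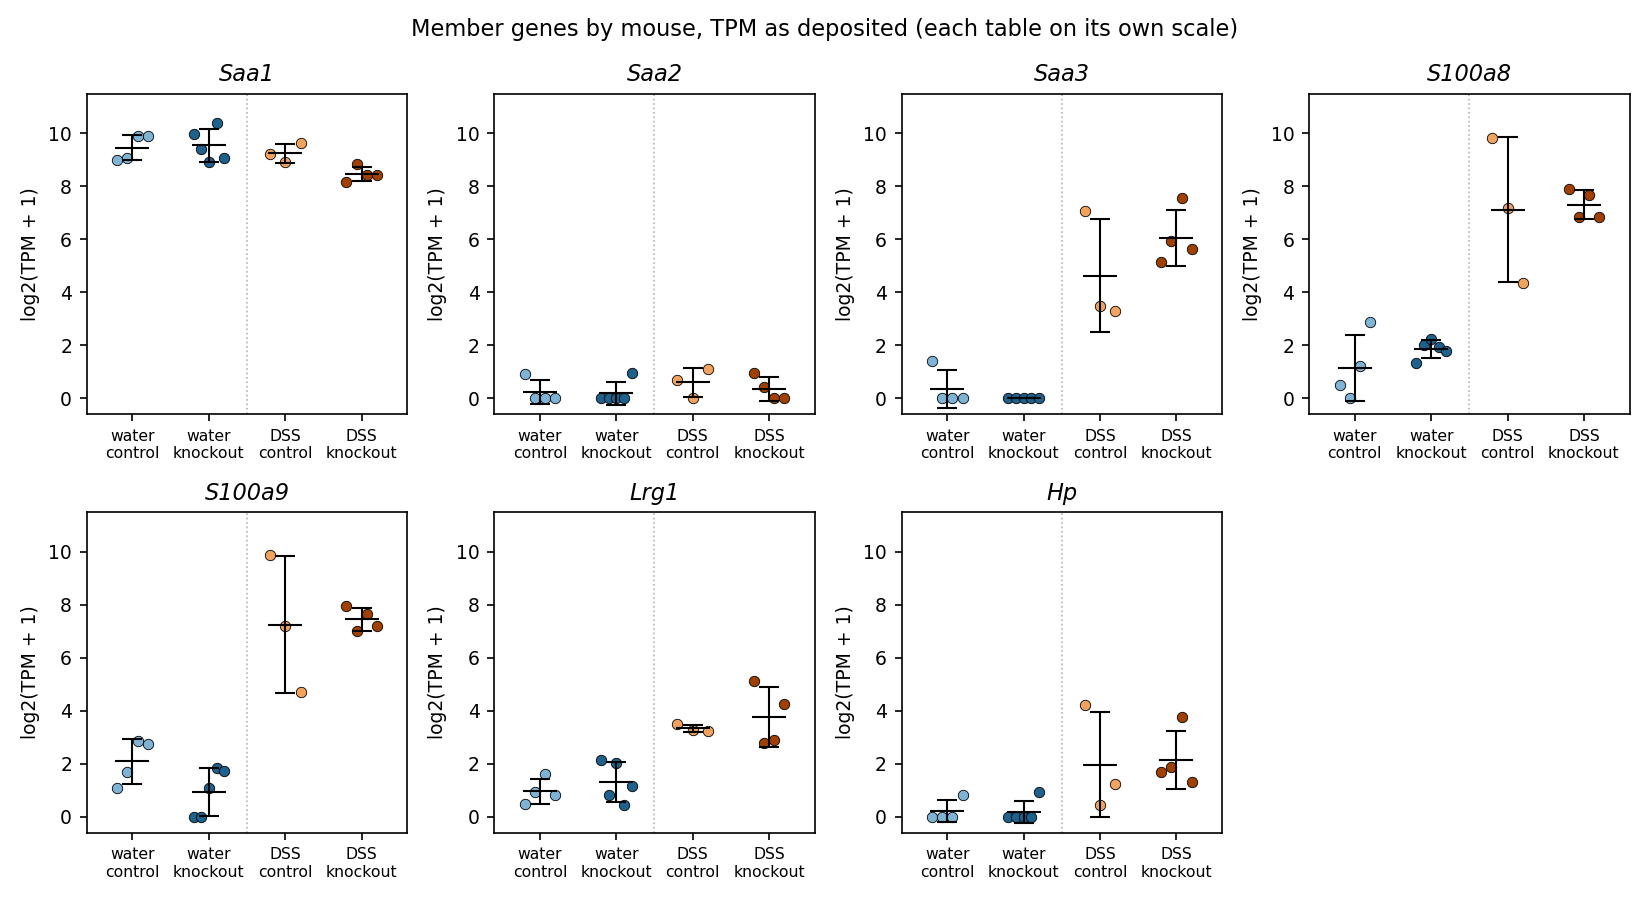
Level of each of the 7 genes, as log2(TPM + 1), in 16 mice (points) by treatment and genotype label, with the mean and SD over mice in black. *Saa1* is high in all groups, *Saa2* is near 0, and *Saa3*, *S100a8*, *S100a9* and *Lrg1* are higher in all 7 DSS-treated mice than in any of the 9 water-treated mice; the 2 treatments come from separately scaled tables.

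*S100a8* and *S100a9* were at 6.31 TPM or less in water and at 19.2 TPM or more in every DSS-treated mouse. *S100a8* had 904, 144 and 19.2 TPM in DSS-treated controls and 234, 113, 201 and 114 TPM in mice labelled knockout. In water it had 0.410, 0, 1.36 and 6.31 TPM in controls and 1.52, 3.03, 3.67, 2.85 and 2.48 TPM in mice labelled knockout. The lowest DSS-treated mouse, control 3, was thus above the highest water-treated mouse, control 4, and the DSS-treated controls spanned 47.0-fold, on both sides of the mice labelled knockout (2.08-fold).

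*S100a9* followed the same order in the DSS-treated mice. It had 935, 145 and 25.2 TPM in controls and 248, 129, 199 and 144 TPM in mice labelled knockout, and in each of these mice its TPM was 0.992 to 1.31 times that of *S100a8*. In water it had 1.13, 2.20, 6.23 and 5.78 TPM in controls and 0, 0, 1.12, 2.62 and 2.28 TPM in mice labelled knockout. There the ratio to *S100a8* ranged from 0 to 4.58, at levels of a few TPM. In DSS-treated control 1 alone of the 16 mice, *S100a8* exceeded *Saa1*, by 1.53 times in TPM.

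*S100a9* is listed as 2 transcripts that share most of their sequence: 6.43% of the windows in ENSMUST00000069960 and 7.77% of those in ENSMUST00000117167 occur in no other transcript. In the DSS-treated mice the level stood under ENSMUST00000117167, except in control 2 (91.5 TPM there and 53.1 TPM under ENSMUST00000069960) and control 3, whose 25.2 TPM stood under ENSMUST00000069960 alone. In water all of it stood under ENSMUST00000069960. With so few distinguishing bases the division between them is uncertain, and the sum is used here.

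*Lrg1* and *Hp* were below both calprotectin genes in every DSS-treated mouse. *Lrg1* had 10.3, 8.71 and 8.47 TPM in DSS-treated controls and 33.7, 5.98, 6.44 and 18.1 TPM in mice labelled knockout. In water it had 0.408, 0.896, 2.03 and 0.786 TPM in controls and 3.40, 0.754, 3.05, 0.355 and 1.24 TPM in mice labelled knockout. Every DSS-treated mouse was above every water-treated mouse, and within a treatment the genotypes overlapped. *Hp* had 17.8, 0.358 and 1.38 TPM in DSS-treated controls and 2.19, 2.64, 12.6 and 1.51 TPM in mice labelled knockout, and in water it was listed at 0 in 7 of 9 mice, with 0.790 TPM in control 4 and 0.933 TPM in knockout 5. The DSS-treated and water-treated mice overlapped for *Hp* through DSS-treated control 2.

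Across the tables the members were compared by the percentile of each gene among the 22396 in its own mouse, as a description with no test. Of the 7 members, 4 (*Saa3*, *S100a8*, *S100a9* and *Lrg1*) ranked higher in all 7 DSS-treated mice than in all 9 water-treated mice. Of the 11263 genes that averaged 1 rescaled TPM or more over all 16 mice (rescaling by the median ratio), 9.99% did so, and 5.27% ranked lower in all. A gene can pass that filter through the treatment where it is high alone, as *Saa3* and *Hp* did. Of the 10154 genes that averaged 1 rescaled TPM or more in each treatment, 10.6% ranked higher and 3.4% lower, and of the 4 members among them *S100a8*, *S100a9* and *Lrg1* ranked higher. *Saa3* had a median percentile of 0 in water and 94.3 after DSS, and *S100a8* moved from 60.5 to 98.3, *S100a9* from 59.2 to 98.3, and *Lrg1* from 51.4 to 76.0. *Saa1* stood at 99.4 in both, and *Hp* at 0 in water and 59.7 after DSS. In a bulk sample, fewer cells of a type and less RNA per cell cannot be told apart.

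**Figure D2:**
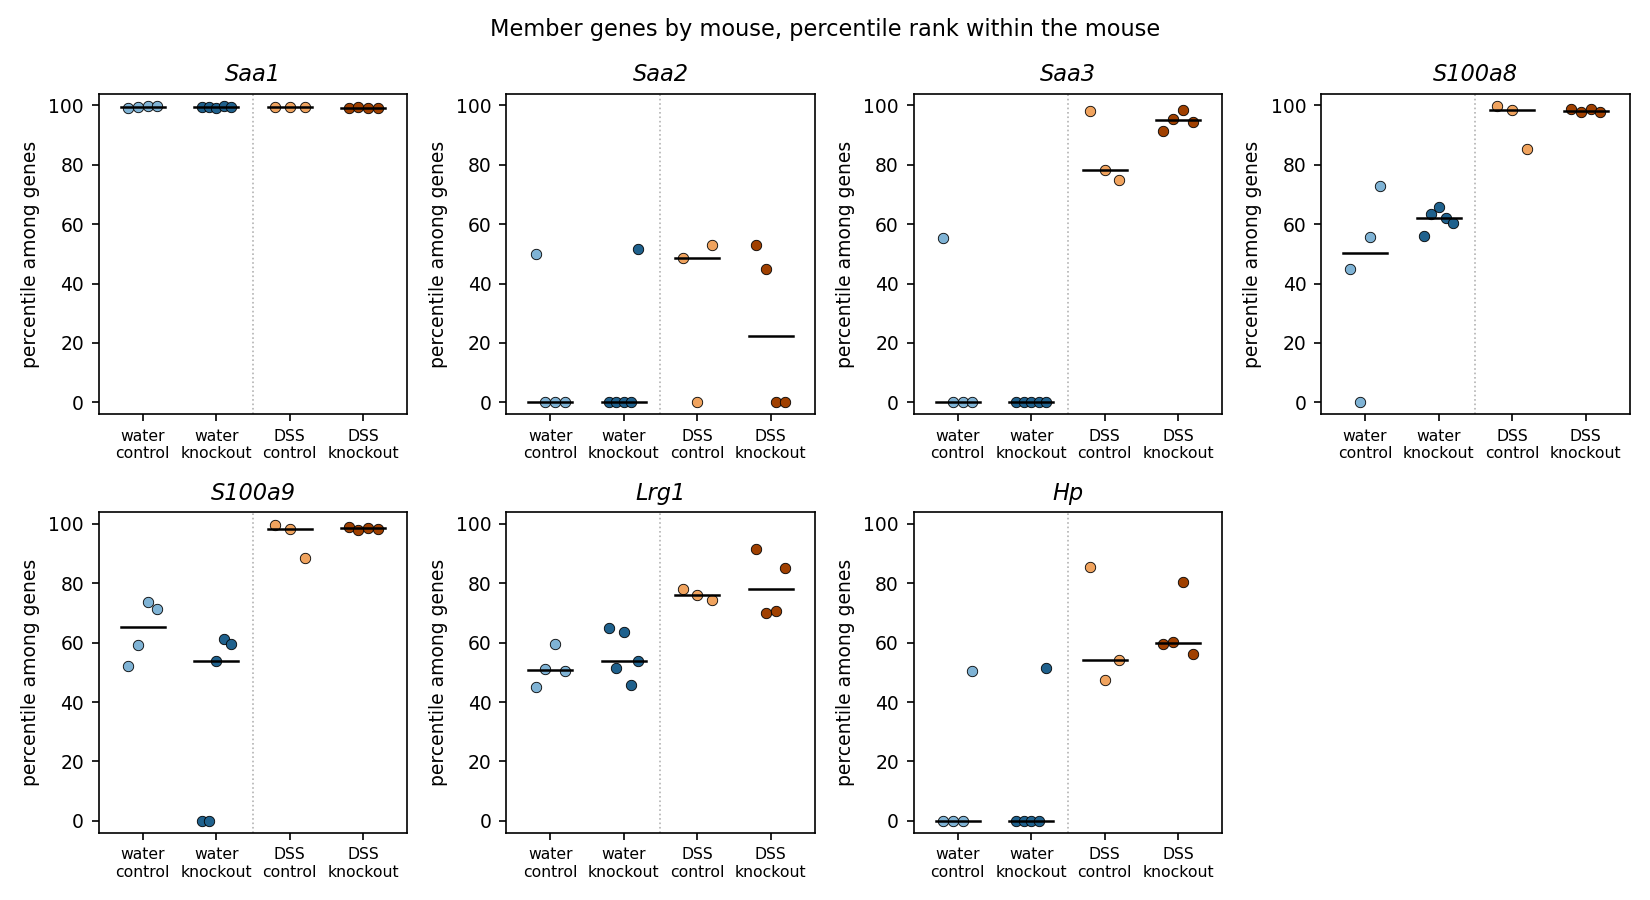
Percentile of each of the 7 genes among all 22396 genes of the same mouse (points) by treatment and genotype label, with the group median as a line; a gene listed at 0 is at percentile 0. *S100a8* and *S100a9* sit at 85.3 or above in every DSS-treated mouse and at 73.6 or below in every water-treated mouse, while *Saa1* is above 99 in all 16.

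With all 16 mice rescaled together by the median ratio over the 9936 genes above 0 in each mouse, the median gene differed by 0.01 between treatments (0.31 as deposited, on the log2 scale). On this scale of log2(TPM + 1), *S100a8* was higher after DSS by 5.70 in controls and 5.12 in mice labelled knockout, *S100a9* by 4.85 and 6.25, and *Lrg1* by 2.13 and 2.18. In controls the size of these differences depended on single DSS-treated mice, since without control 1 they were 4.34 for *S100a8* and 3.53 for *S100a9*, and without control 3 they were 7.12 and 6.16. With a pseudocount of 0.1 in place of 1 the differences in controls and in mice labelled knockout were 7.05 and 5.50 for *S100a8*, 5.21 and 7.88 for *S100a9*, and 2.89 and 2.80 for *Lrg1*. Over both genotypes, with a pseudocount of 1, the differences of *S100a9*, *S100a8* and *Lrg1* were the 3rd, 4th and 31st highest of 11263 genes. That of *Saa1* was the 10089th. The difference of *Saa1* was -0.57 in controls, where the mice overlapped, and -1.45 in mice labelled knockout. There all 4 DSS-treated mice were below all 5 water-treated mice after rescaling but overlapped them in percentile. The share of all genes that lay apart between these mice after rescaling was not counted.

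The question asked of the genotype label was whether loss of TNFR2 from epithelium changed these genes. After DSS, none of the 6 members tested was called by limma on log2(TPM + 1) (adjusted p under 0.05 over 10899 genes), and over all genes 1 (0.00918%) was called, *Tra2a*, named here because it was the single call. At an unadjusted p under 0.05 there were 289 genes, of which 1 was a member, *Saa1*. *Saa1* was lower in the mice labelled knockout by -0.78 on the log2 scale (SE 0.21, unadjusted limma p = 0.00674, adjusted p = 1.00, between 0.787 and 1.00 over 15 alternatives), and the TPM gave an exact permutation p of 0.0286, the smallest that 35 splits allow. All 4 mice labelled knockout were below all 3 controls. Of all 10899 genes, 1.55% were lower in every mouse labelled knockout and 2.13% were higher in every one.

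*Saa1* was lower in the mice labelled knockout in each DSS cage. In cage c, with 1 mouse of each, the log2 difference was -1.45, and in cage d, with 3 against 2, it was -0.50, where 458, 342 and 344 TPM stood against 593 and 480 TPM. For *S100a8* the cages went opposite ways, with 3.54 in cage c and -1.39 in cage d. The log2 fold changes of the other members, none of them called, were 1.43 for *Saa3* (SE 0.98), 0.19 for *S100a8* (SE 1.10), 0.20 for *S100a9* (SE 1.03), 0.43 for *Lrg1* (SE 0.55) and 0.18 for *Hp* (SE 0.95), each with an adjusted p of 1.00 from limma. Without DSS-treated control 3 the fold changes of *S100a8* and *S100a9* were -1.20 and -1.07, and without control 1 they were 1.54 and 1.51, so their direction rested on single controls. That of *Saa3* was 2.66 without control 1 and 0.77 without control 3.

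In the water-treated mice, 4 members passed the filter of a mean of 1 TPM and none was called by limma (1 of 11046 genes, 0.00905%, was called, *Dus2*, and 583 genes and 0 members had an unadjusted p under 0.05). The log2 fold change was 0.09 for *Saa1* (SE 0.34), 0.71 for *S100a8* (SE 0.52), -1.16 for *S100a9* (SE 0.53) and 0.35 for *Lrg1* (SE 0.40), with adjusted p between 0.865 and 0.968. That of *S100a9* rested on values of 0 to 6.23 TPM, gave an exact permutation p of 0.103, and was -1.97 within cage a and -0.67 within cage b. The sign for *S100a8*, its partner, was the opposite in the same mice. No member lay apart by genotype in every water-treated mouse (0.67% of all genes were higher and 0.878% lower in every mouse labelled knockout). Between cages b and a, which differ also in sex, none of the 4 was called (4 of 11046 genes, 0.0362%, were called, *Ddx3y*, *Eif2s3y*, *E2f5* and *Gm26992*, with 754 genes and 0 members at an unadjusted p under 0.05), and the largest difference among them was 0.96 for *S100a9* (SE 0.46, adjusted p = 0.755). No member lay apart by cage (0.996% of all genes were higher and 0.797% lower in all of cage b).

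**Figure D3:**
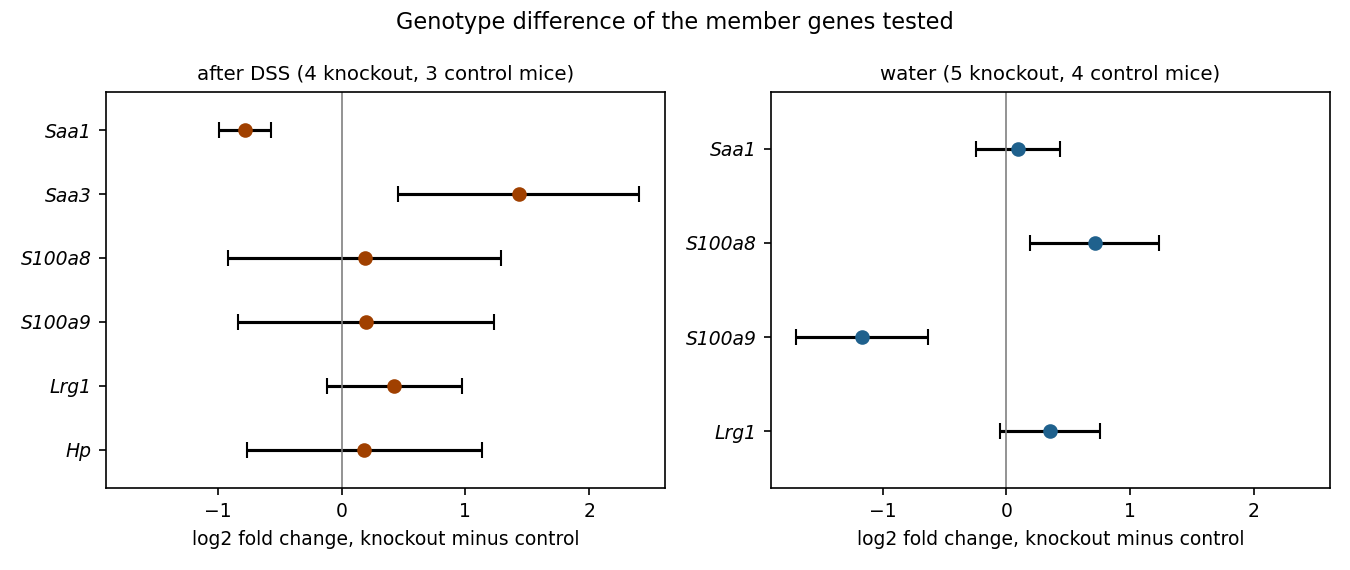
Log2 fold change of log2(TPM + 1), knockout label minus control, with its standard error from limma, for the members that averaged 1 TPM or more after DSS (left) and in water (right). *Saa1* after DSS, at -0.78, has the smallest error of the 6; none of the changes passed the adjusted threshold.

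Among the 42 relations between members within a treatment, 1 passed adjustment. In the 7 DSS-treated mice *S100a8* and *S100a9* had Pearson's r of 0.997 (exact permutation p = 0.000198, adjusted p = 0.00833) and Spearman's rho of 1.00 (p = 0.000397), and r was 0.961 without the 2 mice farthest from the median. With 1 mouse left out r stayed between 0.994 and 0.999, where the adjusted p was 0.0583, the smallest that a single relation of the 42 can reach by exact permutation of 6 mice. In the 9 water-treated mice r was 0.131 (exact permutation p = 0.738) and rho was -0.01 (p = 0.991). *Saa3* and *Hp* had r = 0.880 after DSS (rho 0.893, exact permutation p = 0.0179 and 0.0123, adjusted p for r = 0.375), which failed the correction. Both were highest in DSS-treated control 1 and knockout 3. *Saa1* had negative r with *Saa3*, *S100a8* and *S100a9* after DSS (-0.395, -0.355 and -0.346, adjusted p = 0.908 each by exact permutation), and for the calprotectin genes the sign turned, to 0.656 and 0.645, without the 2 mice farthest from the median of *Saa1*. Those were the 2 mice of cage c, so these values are also those within cage d, which held the other 5 DSS-treated mice. Within cage d r was 0.994 for *S100a8* with *S100a9* and 0.923 for *Saa3* with *Hp*. In water r of *S100a8* with *S100a9* was -0.371 in the 4 mice of cage a and 0.370 in the 5 of cage b. These within-cage values are descriptions, and no test was run on them.

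Neutrophil genes were read beside the calprotectin genes among the DSS-treated mice. DSS-treated control 1, with the most *S100a8*, *S100a9* and *Hp*, was the highest of the 7 mice for 10 of the 13 genes of a 16-gene neutrophil list that were above 0 in any of them. Its *Retnlg* was 75.2 TPM (4.31 to 34.1 in the others), its *Stfa2l1* 41.4 TPM (0 to 8.94) and its *Csf3r* 10.7 TPM (0.611 to 2.78). The mean log2(TPM + 1) of the list ran from 1.43 in control 3, with the least *S100a8*, to 2.93 in control 1. Its r with *S100a8* was 0.897 (exact permutation p = 0.00655, adjusted p = 0.0458 over 14 relations, rho = 0.786, p = 0.0480) and with *S100a9* 0.905 (p = 0.00456, adjusted p = 0.0458, rho = 0.786). By rank neither passed adjustment (adjusted p = 0.309), nor did either after rescaling within the table (adjusted p = 0.0556), both by exact permutation. After that rescaling r was about the same, at 0.900 for *S100a8* and 0.907 for *S100a9*. Within cage d, with 5 mice, r was 0.955 and 0.964. Without the 2 mice farthest from the median r was 0.742 and 0.798, and with any 1 mouse left out neither passed adjustment.

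The summed level of the same list was 271 to 550 TPM after DSS and 108 to 232 TPM in water, of which *Cd177* made up 71.1% to 89.7% in 6 of the DSS-treated mice, 37.3% in control 1 and 27.8% to 57.9% in water. *Cd177* was at 143 to 493 TPM after DSS, lowest in control 1, and at 33.7 to 133 TPM in water. *Ly6g* was at 25.0 TPM or more in all 16 mice and exceeded *Cd177* in water-treated control 3 and knockout 4. Of 9 genes of the list that passed the filter over all 16 mice, 1 (*Cd177*) ranked higher in all DSS-treated mice and 2 (*Itgam* and *Ncf1*) lower in all, beside 9.99% and 5.27% of all genes. *Itgam* passed through the water-treated mice alone, and *Stfa2l1* and *Hdc* through the DSS-treated mice alone. Of the 6 at 1 rescaled TPM or more in each treatment 1 ranked higher and 1 lower, beside 10.6% and 3.4% of all such genes. The granule genes *Elane* and *Camp* were listed at 0 in all mice and *Mpo* in all but 1. Others, under the filter, were higher on average after DSS: *Ltf* (0.250 to 6.31 TPM, 0 to 0.307 in water), *Mmp8* (0.0528 to 5.12 and 0 to 0.155 TPM) and *Ngp* (0 to 2.21 TPM, and 0 in all water-treated mice). *Mmp9*, which passed the filter, was lower on average after DSS (0.287 to 3.99 TPM, 1.44 to 12.8 in water). In water no member's r with the list passed adjustment, and r was 0.235 for *S100a8*. The part of neutrophil RNA in the calprotectin levels was not tested.

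**Figure D4:**
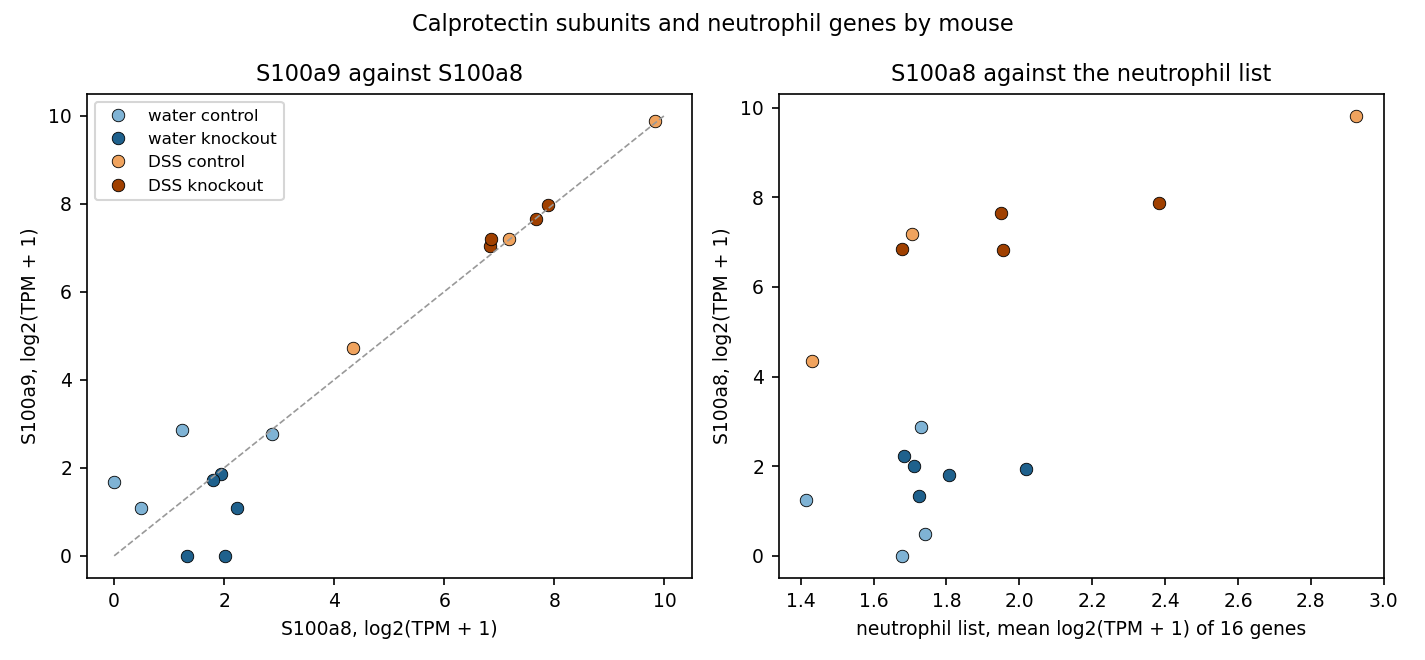
Left, *S100a9* against *S100a8* in 16 mice, both as log2(TPM + 1), with a dashed line where they are equal. Right, *S100a8* against the mean log2(TPM + 1) of the 16-gene neutrophil list; the DSS-treated mice rise with the list from 1.43 to 2.93, while the water-treated mice span 1.42 to 2.02 on the list with *S100a8* at 6.31 TPM or less.

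Markers of the other cell types that such a sort could hold were read in the same mice. Macrophage genes were far lower after DSS, when *Saa3* and calprotectin were higher, with *C1qa* at 0.761 to 11.7 TPM after DSS and 192 to 422 TPM in water, and *Lyz2* at 10.2 to 30.6 and 468 to 1060 TPM. Of the 8 macrophage genes at 1 rescaled TPM or more in each treatment, 7 ranked lower in all DSS-treated mice, beside 3.4% of all such genes. The 6 B and plasma cell genes that passed the filter over all 16 mice, 4 of them through the water-treated mice alone, included 3 that ranked lower, and of the 2 that passed in each treatment 1 ranked lower. A list of 10 hepatocyte genes had a summed level of 27.0 to 72.6 TPM after DSS and 39.5 to 67.2 TPM in water, nearly all of it from *Ttr* (14.5 to 44.6 and 30.2 to 57.2 TPM) and *Tat* (11.1 to 25.6 and 5.65 to 25.6 TPM). *Alb*, the third that passed the filter, was at 0.237 to 2.87 TPM over all 16 mice, and *Fga*, *Fgb* and *Fgg*, the fibrinogen chains, were listed at 0 in all. Of 5 adipocyte genes *Fabp4* alone passed the filter (8.11 to 26.4 TPM after DSS, 3.11 to 21.1 in water), and *Adipoq*, *Cfd* and *Lep* were listed at 0 in all mice. None of the hepatocyte or adipocyte genes that passed the filter lay apart between treatments. Of 10 genes of squamous epithelium, which lines the anal margin next to the distal colon, *Krt14* had 1.09 to 8.81 TPM after DSS and 0 to 1.56 TPM in water, and *Krt13* (1.46 to 6.27 and 0 to 1.42 TPM) and *Krt6a* (0.635 to 6.15 and 0 to 1.47 TPM) were also higher on average after DSS, by 1.32 and 1.15 on the rescaled log2 scale. These 3 passed the filter over all 16 mice through the DSS-treated mice alone, so their differences were in part fixed by it. The 1 gene of the list that passed in each treatment, *Sprr1a*, was its most abundant (83.0 to 142 and 72.3 to 146 TPM) and differed by -0.37. *Krt10* and *Krt4*, under the filter, differed by -0.02 and 0.02, and *Krtdap* was listed at 0 in all mice. The list summed to 91.1 to 153 TPM after DSS and 73.6 to 148 TPM in water, and none of its genes that passed lay apart in rank between treatments. *Krt5*, which fell under the filter (mean 0.859 rescaled TPM), had 0.176 to 5.98 TPM after DSS and was listed at 0 in all water-treated mice. Their part in the members' levels was not tested.

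The upstream route to these genes was read in the same way. The list held 29 genes of IL-6, IL-1, TNF, IL-22 and Toll-like receptor signalling, for ligands, receptors, kinases, an adaptor, inhibitors and transcription factors. Of the 27 that passed the filter, 0 ranked higher and 2 lower in all DSS-treated mice, *Osm* (0.227 to 2.75 against 5.65 to 13.2 TPM), an IL-6 family cytokine, and *Il6ra* (0.310 to 1.31 against 2.68 to 4.26 TPM), the IL-6 receptor chain. Both passed through the water-treated mice alone, and of the 24 at 1 rescaled TPM or more in each treatment 0 ranked higher and 0 lower. Of all genes 9.99% ranked higher and 5.27% lower over all 16 mice, and 10.6% and 3.4% of those that passed in each treatment. The median rescaled log2 difference was -0.23, beside 0.01 over all genes. The most abundant over all 16 mice were *Nfkbia*, an NF-kB inhibitor (135 to 264 TPM after DSS, 128 to 289 in water), *Il1b* (10.8 to 211 and 70.7 to 213 TPM) and *Socs3*, the STAT3 feedback inhibitor (23.1 to 51.4 and 42.5 to 122 TPM). None of the 25 tested after DSS or 27 in water was called for genotype by limma (1 and 0 at an unadjusted p under 0.05).

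Of 32 other inducible defence and acute-phase genes, 22 passed the filter, of which 8 ranked higher in all DSS-treated mice and 0 lower (median rescaled log2 difference 0.21), beside 9.99% and 5.27% of all genes. *Reg3b* and *Lcn2* passed through the DSS-treated mice alone, and of the 20 at 1 rescaled TPM or more in each treatment 6 ranked higher, beside 10.6% of all such genes. *Reg3b*, an antibacterial lectin, had 116 to 1760 TPM after DSS and 0 to 2.94 TPM in water, *Reg3g* 56.8 to 504 and 0 to 2.37 TPM, and *Lcn2*, which binds bacterial siderophores, 2.79 to 43.0 and 0 to 0.961 TPM. The most abundant over all 16 mice besides *Reg3b* were *Pigr*, the transporter of secreted IgA (1123 to 1804 and 793 to 1167 TPM), and *Wfdc2* (64.5 to 221 and 133 to 258 TPM). None of 22 tested after DSS or 20 in water was called for genotype by limma (2 and 2 at an unadjusted p under 0.05), with median log2 fold changes of 0.36 and 0.09 beside 0.02 and 0.00 over all genes.

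Of 18 receptors and ligands known to bind the member proteins, 17 passed the filter, of which 0 ranked higher and 7 lower in all DSS-treated mice (median -1.63), among them *Cd36*, a scavenger receptor that binds amyloid A (0.905 to 5.67 against 21.4 to 70.3 TPM), *Cd163*, the haemoglobin-haptoglobin receptor (0 to 0.288 against 2.28 to 20.6 TPM), and *Tgfb1*, of the pathway that LRG1 modifies (2.32 to 5.13 against 13.2 to 27.8 TPM). *Cd163* passed through the water-treated mice alone, and of the 13 at 1 rescaled TPM or more in each treatment 5 ranked lower, beside 3.4% of all such genes. The most abundant over all 16 mice were *Hba-a1*, a haemoglobin chain of the kind that haptoglobin binds (15.4 to 111 TPM after DSS, 22.2 to 305 in water), and *Hbb-bs* (5.90 to 90.6 and 17.6 to 274 TPM). *Ager*, the receptor RAGE for S100 proteins, was listed at 0 in all 16 mice. Macrophages, which express *Cd36* and *Cd163*, had their markers lower in the same mice, and the part of this in the values was not tested. None of 15 tested after DSS or 16 in water was called for genotype by limma (1 and 0 at an unadjusted p under 0.05).

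The S100 family holds other calcium-binding proteins of epithelium. The list read here held 15 other genes with S100 symbols, among them *S100pbp*, a gene for an S100-binding protein that is not of the family. Of these, 10 passed the filter, *S100pbp* included (1.43 to 2.57 TPM after DSS, 0 to 3.84 in water). Of the 10, 1 ranked higher in all DSS-treated mice, *S100a11* (569 to 938 against 274 to 427 TPM), and 1 lower, *S100a4* (0 to 9.40 against 21.6 to 71.5 TPM). All 10 also passed in each treatment, where 10.6% of all genes ranked higher and 3.4% lower (9.99% and 5.27% over all 16 mice). *S100a6*, the most abundant, had 1564 to 3074 TPM after DSS and 2246 to 3596 TPM in water, and *S100a10* had 433 to 647 and 386 to 665 TPM. None of the 10 was called for genotype by limma in either treatment (0 at an unadjusted p under 0.05 in each). Their median rescaled log2 difference between treatments was -0.46, beside 5.38 for *S100a8* and 5.63 for *S100a9*.

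The genes most like each member were sought by Pearson's r of log2(TPM + 1), as deviations from the treatment mean, over 16 mice and 10159 genes with a mean of 1 TPM in each treatment. For *Saa1* they were *Cideb*, a lipid droplet protein (r = 0.905), *Psd4* (0.896) and *Prss30* (0.893). For *S100a8* they were *Tmem30a* (0.837), *Eif4e3* (0.836) and *Vamp4* (0.830), and for *S100a9* *Mcl1*, a survival factor (0.907), *Ero1l* (0.902) and *Gda* (0.882). For *Lrg1* they were *Cds1* (0.843), *Sgpp2* (0.798) and *Eno1* (0.773). *Saa2* (*Tpr*, 0.789, *Cerk*, 0.771, and *Kcnk6*, 0.768), *Saa3* (*Rhoa*, 0.849, *Rpl7*, 0.804, and *Gm13889*, 0.800) and *Hp* (*Gm4070*, 0.901, *Pla2g7*, 0.882, and *Csf2rb*, 0.852) were listed at 0 in most water-treated mice. The likeness of *Saa3* and *Hp* thus rests mainly on the DSS-treated mice (SD on the rescaled log2 scale 1.63 and 1.36, against 0.50 and 0.43 in water). That of *Saa2* rests on both treatments (SD 0.42 and 0.45), through the few mice above 0. Over the 7 DSS-treated mice alone, a choice made after the values were seen, the gene most like *S100a8* of 10899 was *S100a9*, and the reverse.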

How the data were processed

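RNA of sorted EpCAM+ cells was sequenced by the authors as stranded single reads of 75 bases, quantified with kallisto and tested within each treatment with sleuth. The submitters' processing notes name mm10, and the transcript release is not given in the sources used here. The authors deposited 2 tables of TPM, one for each treatment, scaled between the mice of a table and apart from each other. Each held 29373 lines, of which 385 repeated another, leaving 28988 principal transcripts under 22396 symbols. Other columns of the tables hold the authors' own test and were not used. Positions are from GENCODE M21 (GRCm38), where 96.0% of the identifiers were found with the same version and all were found without it. No column belonged to another sample.

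TPM was summed by symbol. Within each treatment limma 3.58.1 (R 4.3.3), with the variance trend, was fitted to log2(TPM + 1) of the genes that averaged 1 TPM or more. A gene was called where its p, adjusted over all these genes by Benjamini-Hochberg, was under 0.05. For low genes such fold changes are smaller than the change in TPM. Cage in water-treated mice was fitted with genotype as a covariate. The test was run on simulated data before use. For single genes the mice were also permuted exactly, two-sided, over 35 splits after DSS (smallest p 0.0286) and 126 in water (smallest p 0.00794). Across treatments levels were described without a test, by percentile within each mouse and after rescaling by median-of-ratios factors (1.11 to 1.21 in DSS-treated and 0.882 to 0.916 in water-treated mice). Genes were counted there where the rescaled TPM averaged 1 or more over the 16 mice, or in each treatment, a choice made after the values were seen. Correlations of log2(TPM + 1) were computed within a treatment, with exact permutation of pairings. Replicate numbers of the labels name different animals and do not pair them.

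The members, marker lists, pathway lists and motifs were chosen with earlier results of these data known. The genes named are the members, the 3 genes most like each, the most abundant genes of a list (up to 3), its called genes and those with the largest difference that do not overlap between treatments (up to 3 in each direction), and *Tnfrsf1b*. Marker genes are given for a few lists only. Replicates are separate mice, whose number limits the precision. Alternatives were a pseudocount of 0.1, no filter or a mean of 5 TPM, rescaling within a table, all groups in one fit, cage or the replicate block as covariates, *Saa1* and *Saa2* summed, and leaving out each mouse. Python 3.11.15 with pandas 2.3.3, numpy 2.4.6, Biopython 1.88 and matplotlib 3.10.9 was used.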

Additional observations from a re-analysis of the deposited data

Results flagged for a closer look

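Of 20 groups of 4 or 5 mice that were looked at for a mouse far from the rest, 7 had one. Chance alone gives about 1 in 20 where values are not tied, a rate that does not apply to 5 of the 7, where a single mouse above 0 among zeros is always far from the rest. After DSS, knockout 3 stood apart for *Saa3* (188 TPM, next 59.4) and for *Hp* (12.6 TPM, next 2.64). In water those 5 were control 1 for *Saa2* (0.869 TPM) and *Saa3* (1.65 TPM), control 4 for *Hp* (0.790 TPM), and knockout 5 for *Saa2* (0.961 TPM) and *Hp* (0.933 TPM). The DSS-treated controls, with 3 mice, are too few for this check.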

How the results depend on the processing

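None of the members was called for genotype or cage by limma under any alternative run, at adjusted p between 0.654 and 1.00, and the log2 fold change of *Saa1* after DSS kept its direction in all, between -0.95 and -0.59 when 1 mouse was left out. Same-numbered mice did not deviate together (r from -0.197 to 0.0932), and under the replicate block 0 genes were called after DSS and 0 in water, with *Saa1* after DSS at -0.77. Over all genes, 0 were called for genotype after DSS with a pseudocount of 0.1 or no filter and 0 to 3 with 1 mouse left out. In water 0 were called with a pseudocount of 0.1 or a mean of 5 TPM, 4 with no filter, 3 with all 4 groups in one fit and 1 to 2 with 1 mouse left out, and for cage 3 to 7 with 1 mouse left out. Leaving out 1 mouse turned signs of fold changes that were not called. After DSS these ran from -1.20 to 1.54 for *S100a8*, -1.07 to 1.51 for *S100a9*, -0.022 to 0.75 for *Lrg1* and -0.58 to 1.31 for *Hp*. In water *Saa1* ran from -0.12 to 0.25 by genotype, and by cage *Saa1* ran from -0.32 to 0.06, *S100a8* from -0.10 to 0.92 and *Lrg1* from -0.50 to 0.074. Without a turn of sign, *S100a8* in water ran from 0.33 to 1.285 by genotype, *S100a9* from -1.50 to -0.91 and *Lrg1* from 0.14 to 0.57. With a pseudocount of 0.1 the fold changes in water were 1.705 for *S100a8*, -2.41 for *S100a9* and 0.52 for *Lrg1* by genotype, and 0.195 for *S100a8* and 2.54 for *S100a9* by cage.

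Between treatments *Saa1*, *S100a8*, *S100a9* and *Lrg1*, the members for which alternatives were run, kept their directions. With each mouse scaled to one sum of listed TPM, the difference in mice labelled knockout was -0.87 for *Saa1* and 5.62 for *S100a8*, and with a pseudocount of 0.1 it was 7.88 for *S100a9*, and in controls 7.05 for *S100a8* and 2.89 for *Lrg1*. For *Saa1* in controls it was -0.36 with one sum of listed TPM and -0.21 in TPM as deposited. With 1 mouse left out 0 relations between members passed adjustment after DSS, which the design fixes, since a single relation among 42 cannot go below an adjusted p of 0.0583 with 6 mice. For the neutrophil list 0 passed with 1 mouse left out, with rescaling within the table (adjusted p = 0.0556 for both calprotectin genes) and, by an alternative chosen after seeing the data, with rank correlation (adjusted p = 0.309), whereas both passed without *Cd177* and *Ly6g*, also chosen later (adjusted p = 0.0444). With 1 mouse left out r with the list ran from 0.786 to 0.934 for *S100a8* and 0.787 to 0.940 for *S100a9*, and it turned sign for *Saa1* (-0.785 to 0.358) and *Lrg1* (-0.0224 to 0.50). The cause of the other changes was not tested. The depth of each library is not known here, so a gene listed at 0 is not shown to be absent.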
